A study of Homo sapiens with 12 samples.

Results

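Interferon-stimulated antiviral effector genes were examined in THP-1, an established human monocytic leukaemia line, unedited or edited at IRAK4 and with or without the drug CC-885. The 38 genes were chosen by symbol as known interferon-induced effectors, and the interferon regulatory factors and STAT factors were left out. The rule itself uses no measured value, but the choice was made with earlier results of these data known. All 38 were among the 30017 symbols of the count table, and all 38 passed the filter on low counts that left 16010 genes for testing. IRAK4 is the kinase that relays Toll-like and interleukin-1 receptor signals, and CC-885 is a cereblon modulator that directs the translation termination factor GSPT1 to degradation. The 4 groups of 3 libraries were THP1 WT with DMSO, THP1 WT with 50 nM CC-885, THP1 IRAK4KO with DMSO and THP1 IRAK4KO with 50 nM CC-885, each for 12 h. All cells had been electroporated and expanded from single cells, with Cas9 and an sgRNA against IRAK4 for the knockout, and clones were screened by PCR and sequencing per the labels. The number of clones behind each genotype is not given in the sources used here, so the knockout and clonal differences cannot be told apart. Nor do the labels say that replicates were separate cultures, so the p-values reflect no more than how far these libraries differ, which may be technical.

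Type I interferons bind a shared receptor on the cell surface and activate a transcription factor complex containing IRF9, which binds interferon-stimulated response elements near target genes. The induced proteins act at successive steps of infection. They block virus entry, sense viral RNA, halt its translation, degrade it, or hold new particles at the cell surface. Monocytic cells carry many of these transcripts at a low basal level and raise them when viral nucleic acid or interferon is sensed.

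The promoters of 6 genes whose levels behaved in different ways are shown, from RefSeq on GRCh38.p14, each running from 250 bases before to 50 bases after an annotated start. Capitals mark matches to the core letters of the interferon-stimulated response element, which were searched as GAAA, any 2 bases and GAAA again, or on the other strand as TTTC, any 2 bases and TTTC. IFIT1 (chr10:89392373-89392672, plus strand) and ISG15 (chr1:1013247-1013546, plus strand) stand for the genes that CC-885 raised in wild type. IFI27 (chr14:94110486-94110785, plus strand) had the widest gap between genotypes, BST2 (chr19:17405581-17405880, minus strand) fell with CC-885 in both genotypes, HERC5 (chr4:88456869-88457168, plus strand) was higher in knockout under DMSO, and DDX60 (chr4:168318703-168319002, minus strand) rose in both genotypes.
IFIT1: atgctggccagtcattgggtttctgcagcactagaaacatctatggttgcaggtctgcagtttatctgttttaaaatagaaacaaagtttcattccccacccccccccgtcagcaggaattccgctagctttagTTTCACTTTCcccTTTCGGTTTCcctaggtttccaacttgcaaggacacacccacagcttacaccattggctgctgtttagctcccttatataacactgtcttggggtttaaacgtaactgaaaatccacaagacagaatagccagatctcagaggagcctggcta
ISG15: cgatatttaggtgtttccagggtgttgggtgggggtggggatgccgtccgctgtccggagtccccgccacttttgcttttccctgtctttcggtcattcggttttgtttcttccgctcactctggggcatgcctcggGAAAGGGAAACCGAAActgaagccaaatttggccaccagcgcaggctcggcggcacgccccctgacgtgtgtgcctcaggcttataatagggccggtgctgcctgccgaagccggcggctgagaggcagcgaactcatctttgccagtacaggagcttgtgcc
IFI27: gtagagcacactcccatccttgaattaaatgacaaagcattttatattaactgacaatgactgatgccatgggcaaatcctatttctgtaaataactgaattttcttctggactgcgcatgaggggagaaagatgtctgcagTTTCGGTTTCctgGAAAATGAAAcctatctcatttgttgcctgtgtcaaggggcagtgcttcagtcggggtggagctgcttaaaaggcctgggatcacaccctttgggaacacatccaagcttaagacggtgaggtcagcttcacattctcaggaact
BST2: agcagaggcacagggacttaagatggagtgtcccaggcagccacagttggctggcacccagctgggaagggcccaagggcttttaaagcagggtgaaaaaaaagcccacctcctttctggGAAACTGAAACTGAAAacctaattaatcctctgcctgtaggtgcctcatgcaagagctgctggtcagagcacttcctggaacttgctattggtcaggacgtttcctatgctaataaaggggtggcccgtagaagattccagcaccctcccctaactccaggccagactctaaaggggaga
HERC5: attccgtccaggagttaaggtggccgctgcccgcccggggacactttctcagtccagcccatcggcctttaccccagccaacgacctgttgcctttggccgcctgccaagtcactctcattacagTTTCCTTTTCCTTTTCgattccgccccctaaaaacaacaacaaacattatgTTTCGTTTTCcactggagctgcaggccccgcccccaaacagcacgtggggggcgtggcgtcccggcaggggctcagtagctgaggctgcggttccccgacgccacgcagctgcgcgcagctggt
DDX60: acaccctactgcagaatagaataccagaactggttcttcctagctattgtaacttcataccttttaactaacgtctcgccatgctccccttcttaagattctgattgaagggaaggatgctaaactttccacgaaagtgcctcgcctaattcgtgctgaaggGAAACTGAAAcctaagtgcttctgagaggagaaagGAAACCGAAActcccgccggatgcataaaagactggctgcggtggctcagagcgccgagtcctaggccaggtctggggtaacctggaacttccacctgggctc
The pattern was found in the window of 22 of the 31 genes with an entry (71.0%), and in 4.38% of all 27305 genes with one. Over windows, it was found in 27 of 44 (61.4%) for these genes and in 1255 of 35116 (3.57%) in all, counting both strands and overlapping matches. In IFIT1 the first match starts 116 bases before the start site, in ISG15 113, in IFI27 108, in BST2 130, in HERC5 125 and in DDX60 88. A match is a description of the letters and does not show a bound site.

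Library totals ranged from 46903984 to 56675539 counts. IRAK4 had a level of 52.2 ± 1.57 CPM in wild-type libraries with DMSO and 72.8 ± 9.53 CPM with CC-885 (mean ± SD, n = 3 in each group throughout). With IRAK4 edited it had 8.26 ± 0.847 and 30.7 ± 1.05 CPM, or 15.8% and 42.2% of wild type. CPM are library-size-scaled counts with TMM factors, a relative measure, so fewer cells and less RNA per cell cannot be told apart. All 12 listed markers of monocytic leukaemia were detected, summing per library to 2748 to 2818 CPM in wild type under DMSO, 1901 to 2001 under CC-885, 3648 to 4738 in knockout under DMSO and 1747 to 1785 under CC-885, although CD14 read only 1.20 to 3.74 CPM as a group mean. CD3E, MS4A1 and CDH5, defining markers of T, B and endothelial cells, had 0 counts in every group. The 10 T and NK cell markers summed to 115.5 to 116.5 CPM in wild type under DMSO, 54.4 to 67.0 under CC-885, 30.3 to 32.9 in knockout under DMSO and 11.5 to 11.7 under CC-885, mostly from NCAM1 and NKG7. Of the 10 markers, 8 were under 1 CPM in each group, 4 were at 0 under DMSO in either genotype and 5 under CC-885, and their part in the results was not tested. B cell and erythroid markers summed to 1.98 to 8.72 and 0.0176 to 0.673 CPM over all libraries, and epithelial, stromal and endothelial ones to 91.8 to 459 CPM, nearly all from PECAM1, whose group means in the same order were 281, 108, 436 and 93.8 CPM.

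One library stood apart. The wild-type CC-885 replicate 3 had chi-square statistics, divided by their degrees of freedom, of 81.2 against replicate 1 and 66.4 against replicate 2, while replicates 1 and 2 gave 5.31. The 38 genes together reached 3207 CPM there and 2082 and 2167 CPM in the other libraries of the group. It is also the only library of its group whose name begins with 52 rather than 51, a number the labels do not explain. Within wild type under CC-885, 37 of 38 genes were higher in the 52 library (median log2 ratio 0.56, against -0.02 over all genes), and within wild type under DMSO 32 of 38 were higher in the 52 libraries (median 0.22, against 0.01). All knockout CC-885 libraries carry 51. Within knockout under DMSO the figure was 24 of 38 (median 0.08, against 0). What the number marks is not known from the labels. The edgeR model with the number as a covariate takes the same shift for a gene in every group, although these medians differed. In that model 33 of the 38 genes rose and 3 fell with CC-885 in wild type, and 10 rose and 17 fell in knockout. The interaction was below 0 for 35. Without the covariate the counts in that order were 30, 3, 6, 17 and 33. The counts that rest on that library are therefore given with and without it.

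**Figure D1:**
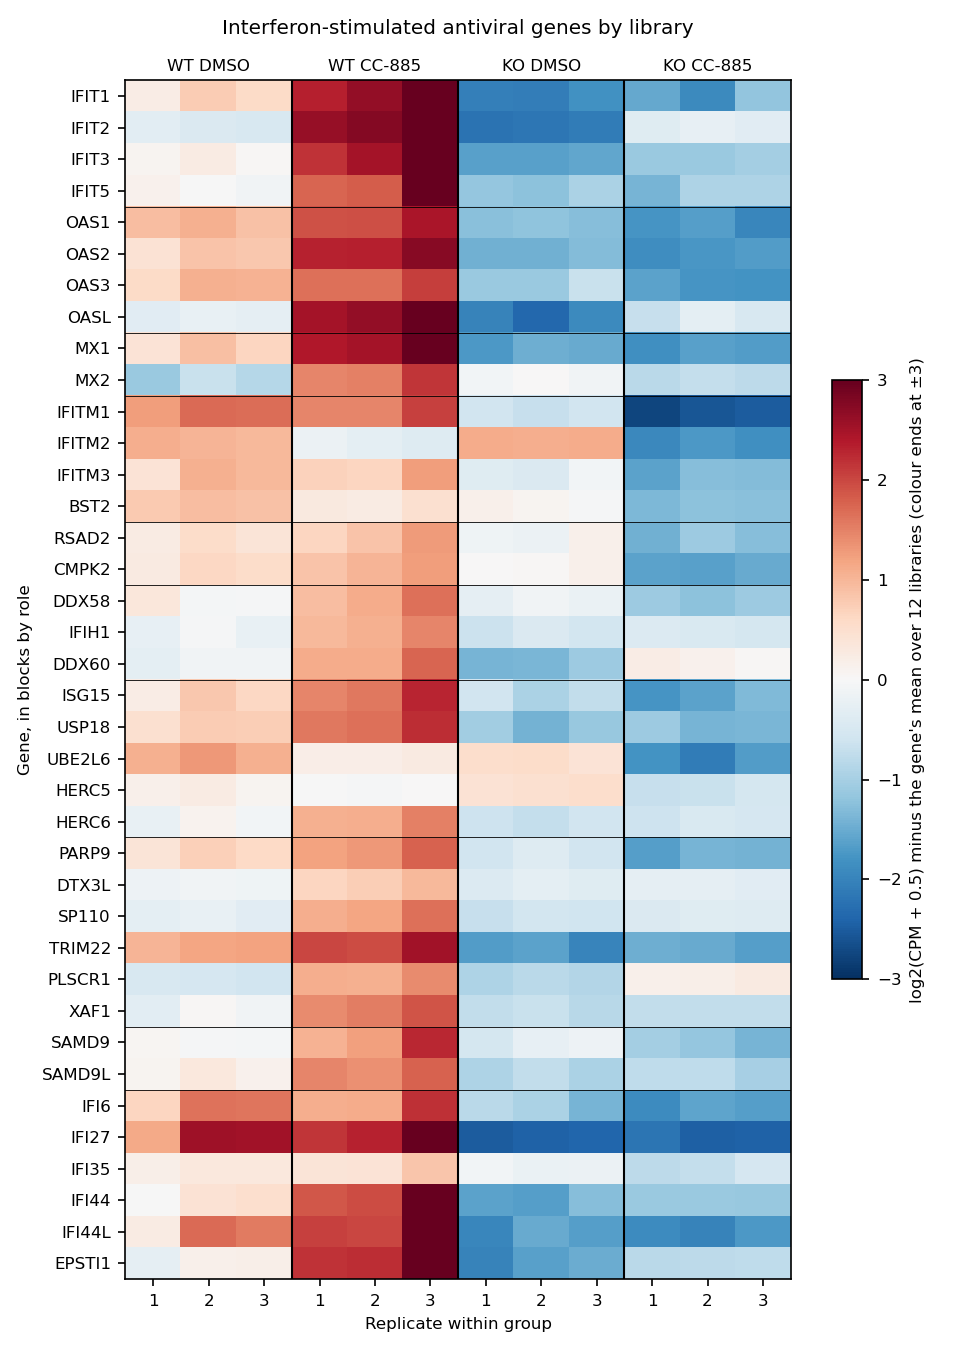
Levels of the 38 genes (rows, in blocks by role) in the 12 libraries (columns, by group and replicate). Colour gives log2(CPM + 0.5) minus the mean of the gene over all libraries, and the wild-type CC-885 libraries hold the deepest red, replicate 3 most of all, while the knockout CC-885 libraries are mostly blue.

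CC-885 raised most of the genes in wild-type cells. Summed over the 38 genes, the level was 1189 ± 125 CPM under DMSO and 2485 ± 626 CPM under CC-885. Of the 38, 30 rose, 3 fell (IFITM2, UBE2L6 and BST2) and 5 were not called (IFITM1, IFITM3, HERC5, IFI6 and IFI27) at an edgeR adjusted p under 0.05. Of all genes tested, 35.7% were higher and 36.6% lower. The median log2 fold change was 1.28 against -0.03 over all genes. Rises of at least 2-fold were called for 24 of the 38 genes and 2660 of all 16010. The libraries of the groups did not overlap for 30 genes in the higher and 4 in the lower direction, against 36.2% and 37.7% of all genes. Without wild-type CC-885 replicate 3, 28 rose and 3 fell (median 0.99), with the calls of IFI35 and IFI44L lost (log2 fold changes 0.13 and 0.78, edgeR adjusted p = 0.149 and 0.0693). OAS1 (0.99), DDX58 (0.96), ISG15 (0.95), USP18 (0.99) and TRIM22 (0.86) then fell short of 2-fold, as did IFI44L. Among libraries of either prefix alone, 34 of 38 genes were higher with CC-885, with a median of 1.23 in the 51 libraries and 1.56 in the 52 libraries.

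In IRAK4 knockout cells CC-885 lowered more of the genes than it raised. The summed level went from 655 ± 8.67 CPM under DMSO to 470 ± 6.16 CPM under CC-885. Here 6 genes rose (IFIT2, OASL, DDX60, EPSTI1, PLSCR1 and IFIT3), 17 fell and 15 were not called, while 38.9% of all genes were higher and 40.0% lower. The median was -0.29 against -0.03 over all genes. Libraries did not overlap for 8 genes in the higher and 18 in the lower direction, against 40.4% and 41.5% of all genes. The number that fell is near the background share, and the number that rose is below it. Within the 51 libraries alone, 15 genes were higher and 23 lower with CC-885 (median -0.24). With the prefix as a covariate the median was -0.03, and 10 genes rose and 17 fell. A replicate block by the number in the library name gave -0.04, with 9 higher and 16 lower. The downward median of the 38 genes therefore depends on the model. The prefix covariate takes the same shift for a gene in every group. The median log2 ratio of 52 over 51 libraries was 0.56 and 0.22 in wild type under CC-885 and DMSO. It was 0.08 in knockout under DMSO, and no knockout CC-885 library carries 52. Whether the shift applies to knockout was not tested. Upper-quartile scaling shifted the all-gene median by -0.15 and left the members at 6 higher and 17 lower.

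Set side by side, the responses of the genotypes took 6 forms. How many of all genes tested took each form was not counted, so whether these counts are unusual is not known. Of all genes, 35.7% rose and 36.6% fell in wild type, and 38.9% rose and 40.0% fell in knockout. Rising in wild type and falling in knockout were 11 genes (OAS1, OAS2, OAS3, MX2, RSAD2, CMPK2, DDX58, ISG15, PARP9, SAMD9 and IFI35). Another 13 rose in wild type and were not called in knockout, among them IFIT1, MX1, USP18, TRIM22 and IFI44L. The 6 genes that rose in knockout all rose in wild type as well. IFITM2, BST2 and UBE2L6 fell in both, IFITM1, IFITM3 and HERC5 fell in knockout and were not called in wild type, and IFI6 and IFI27 were called in neither.

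The difference between the responses was tested directly as the interaction, which takes the wild-type response from that of the knockout. It was below 0 for 33 of 38 genes, above 0 for 0 and not called for 5, while 17.9% of all genes had a positive and 16.8% a negative call. The median over the 38 genes was -1.65, against -0.01 over all genes. An interaction called at least 2-fold below 0 was found for 28 of the 38 genes and 705 of all 16010. Without wild-type CC-885 replicate 3, 34 of 38 were below 0 (median -1.24), and IFITM3, at -0.95, fell short of 2-fold. Not called were IFIT1 (-2.01 ± 0.84, edgeR adjusted p = 0.0961), DDX60, IFI6, IFI27 and IFI44L. IFIT1 passed in 7 of the 23 alternatives, among them the fit without that replicate (-1.30, edgeR adjusted p = 0.00476). IFI44L passed with the prefix covariate (-1.73, edgeR adjusted p = 0.00295) and in the 51 libraries, and IFI6 in the 51 libraries. The call of IFI44 was lost in 11 of the 23. Upper-quartile scaling also gave 33 genes below 0, while it turned the split over all genes from 17.9% positive and 16.8% negative to 13.5% and 20.6%.

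**Figure D2:**
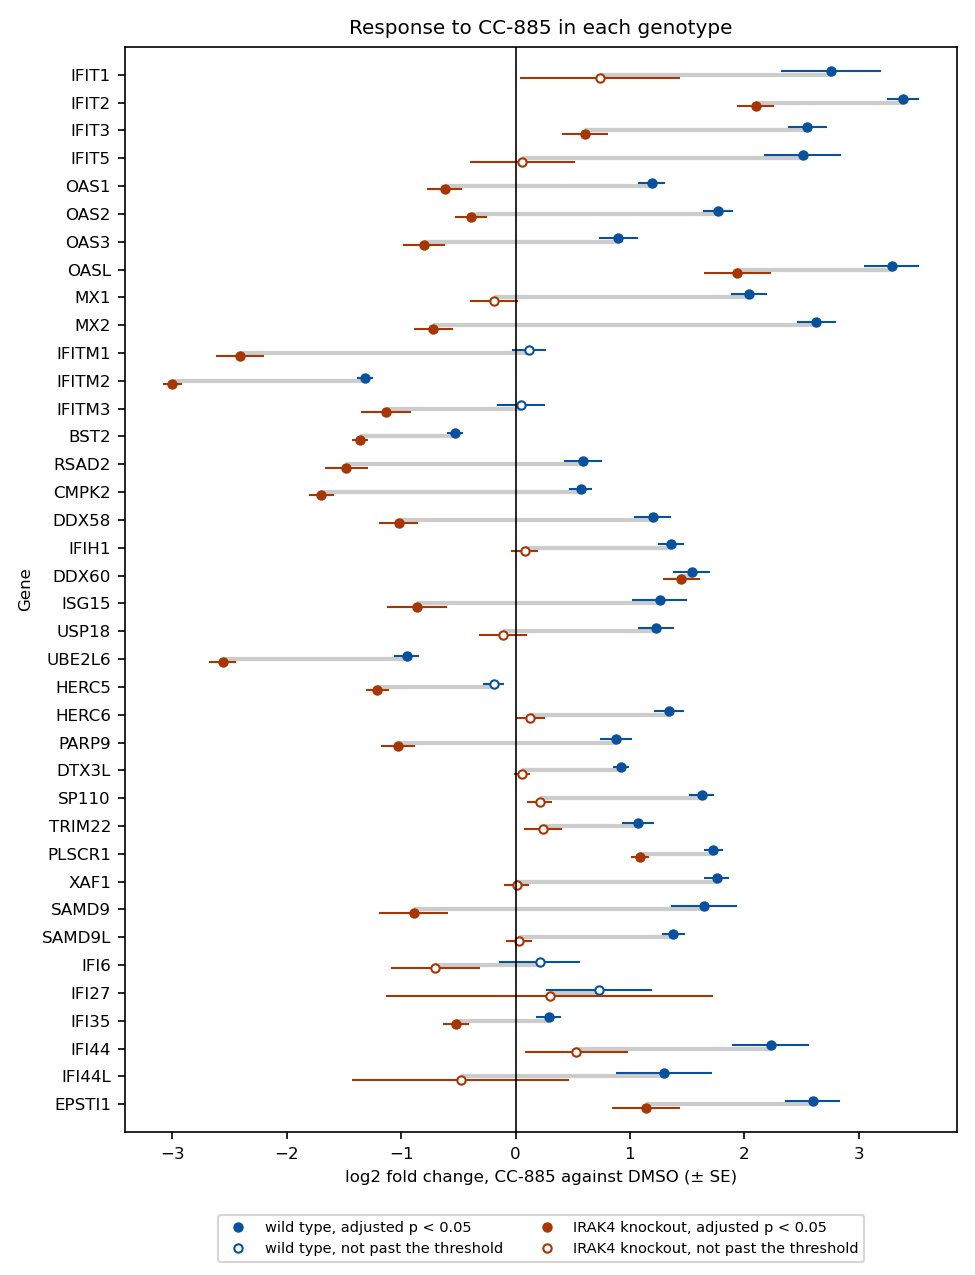
Log2 fold change (CC-885 against DMSO, ± SE) of each of the 38 genes in wild type (blue) and knockout (orange), with filled points for genes past an adjusted p of 0.05. The knockout point lies to the left of the wild-type point for all 38 genes, closest for DDX60 at 1.45 against 1.54.

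Without the drug most of the genes were lower in knockout. Under DMSO, 33 of 38 were lower than in wild type, 2 were higher (MX2 and HERC5) and 3 were not called (IFITM2, DDX58 and SAMD9), while 21.3% of all genes were higher and 28.4% lower. The median log2 difference was -1.14 against -0.06 over all genes, and 22 of the 38 were at least 2-fold lower, as were 1069 of all 16010. Libraries did not overlap for 35 genes in the lower and 2 in the higher direction, against 34.5% and 25.3% of all genes. With upper-quartile scaling, which shifted the all-gene median by 0.12 and gave 29.3% of them higher and 19.0% lower, 30 of the 38 were lower and 3 higher. The comparison within the 51 libraries (2 knockout against 1 wild type) gave 35 of 38 lower, with a median of -0.97, and within the 52 libraries (1 against 2) 35 of 38, with a median of -1.17.

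Under CC-885 all 38 genes were lower in knockout than in wild type, and the libraries of the groups did not overlap for any of them. Over all genes, 30.8% were lower, 27.8% were higher and 32.4% did not overlap in the lower direction. The median was -2.92 against -0.02 over all genes, and 37 of the 38 were at least 2-fold lower, HERC5 being the exception. Of all 16010 genes, 1541 were at least 2-fold lower. Without wild-type CC-885 replicate 3 all 38 were again lower, with a median of -2.71. DDX60 (-0.99), DTX3L (-0.99) and PLSCR1 (-0.88) then fell short of 2-fold as well. All 38 were also lower in the 51 libraries alone (median -2.70), and the 52 libraries gave no value because no knockout CC-885 library carries that prefix. These comparisons share the wild-type or knockout libraries with the responses above and are not independent of them.

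**Figure D3:**
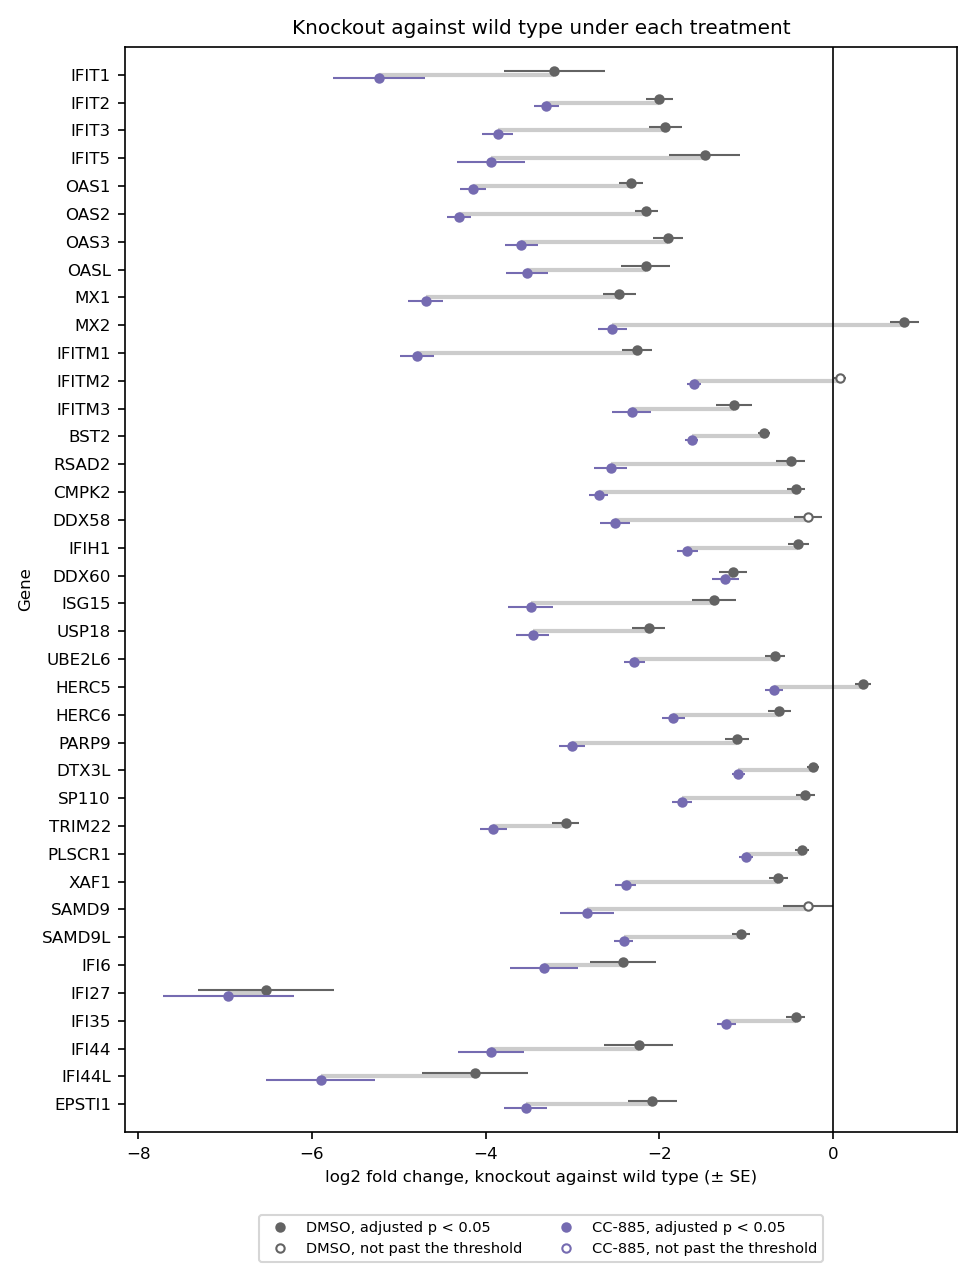
Log2 difference (knockout against wild type, ± SE) of each gene under DMSO (grey) and CC-885 (purple), with filled points for genes past an adjusted p of 0.05. All purple points lie below 0, from -6.96 for IFI27 to -0.68 for HERC5, and under DMSO only MX2, HERC5 and IFITM2 lie above 0.

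The IFIT proteins bind viral RNA and block its translation. Library values are given in the order of replicates, DMSO before CC-885. IFIT1, which recognises RNA with an unmethylated cap, read 4.81, 7.17 and 6.26 CPM in wild type with DMSO and 22.4, 27.8 and 73.5 CPM with CC-885. In knockout it read 0.6004, 0.577 and 0.794 CPM and 1.08, 0.7099 and 1.51 CPM. The wild-type groups did not overlap and replicate 3 was far above the other treated libraries, while the knockout groups overlapped and lay below every wild-type library. Its log2 fold change with CC-885 (± SE, the scale of every response here) was 2.76 ± 0.44 in wild type (edgeR adjusted p = 0.000274), or 2.04 without replicate 3, and 0.74 ± 0.70 in knockout (0.352). The knockout value was called higher in 5 alternatives, at 1.15 with the prefix covariate and 0.74 without wild-type CC-885 replicate 3 (edgeR adjusted p = 0.0365 and 0.0204). IFIT1 was lower in knockout by a log2 difference of -3.21 ± 0.58 under DMSO and -5.23 ± 0.53 under CC-885, the latter -4.51 without that replicate.

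IFIT2, a partner of IFIT1 and IFIT3, read 7.82, 7.19 and 6.96 CPM in wild type with DMSO and 63.2, 69.1 and 98.7 CPM with CC-885. Knockout libraries gave 1.74, 1.801 and 1.93 CPM and 7.61, 8.18 and 7.65 CPM, so that treated knockout libraries only reached the level of untreated wild type. It had the largest rise of the 38 genes in both genotypes, 3.39 ± 0.14 in wild type and 2.10 ± 0.16 in knockout (edgeR adjusted p = 9.41e-12 and 7.40e-09), and the responses differed by -1.30 ± 0.21 (0.00029). IFIT5, which binds RNA with a free triphosphate end, read 2.97, 2.62 and 2.44 CPM and 10.01, 10.6 and 25.1 CPM in wild-type cells and 0.901, 0.839 and 1.13 CPM and 0.6996, 1.15 and 1.16 CPM in knockout. The drug separated the wild-type groups and left the knockout groups overlapping, with an interaction of -2.46 ± 0.57 (edgeR adjusted p = 0.00732). IFIT3, which stabilises IFIT1, rose by 2.55 ± 0.17 in wild type and by 0.61 ± 0.20 in knockout. The knockout call of IFIT3 was lost with limma voom (limma voom adjusted p = 0.0917).

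The 4 IFIT genes sit together on chromosome 10 (89283694 to 89421001, GRCh38), and their neighbours were lower in knockout too. Of 20 other tested genes centred within 2 Mb of the cluster, 13 were lower and 2 higher in knockout under DMSO, with a median log2 difference of -1.04, and the median was -1.24 under CC-885. Between 2 and 5 Mb away 20 of 27 were lower (median -1.06), and between 5 and 10 Mb away 38 of 46 (median -0.88). Over all of chromosome 10, 82.8% of 507 other tested genes were lower under DMSO (median -0.99), against 19.7% to 42.2% on the other 14 chromosomes that hold members, whose medians lay between -0.16 and 0. The IFIT genes had medians of -1.97 under DMSO and -3.90 under CC-885, below those of their neighbours. The neighbours' median interaction was -0.10, against -1.97 for the IFIT genes. What lowers chromosome 10 transcripts in knockout, and its share in the IFIT difference between genotypes, was not tested.

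**Figure D4:**
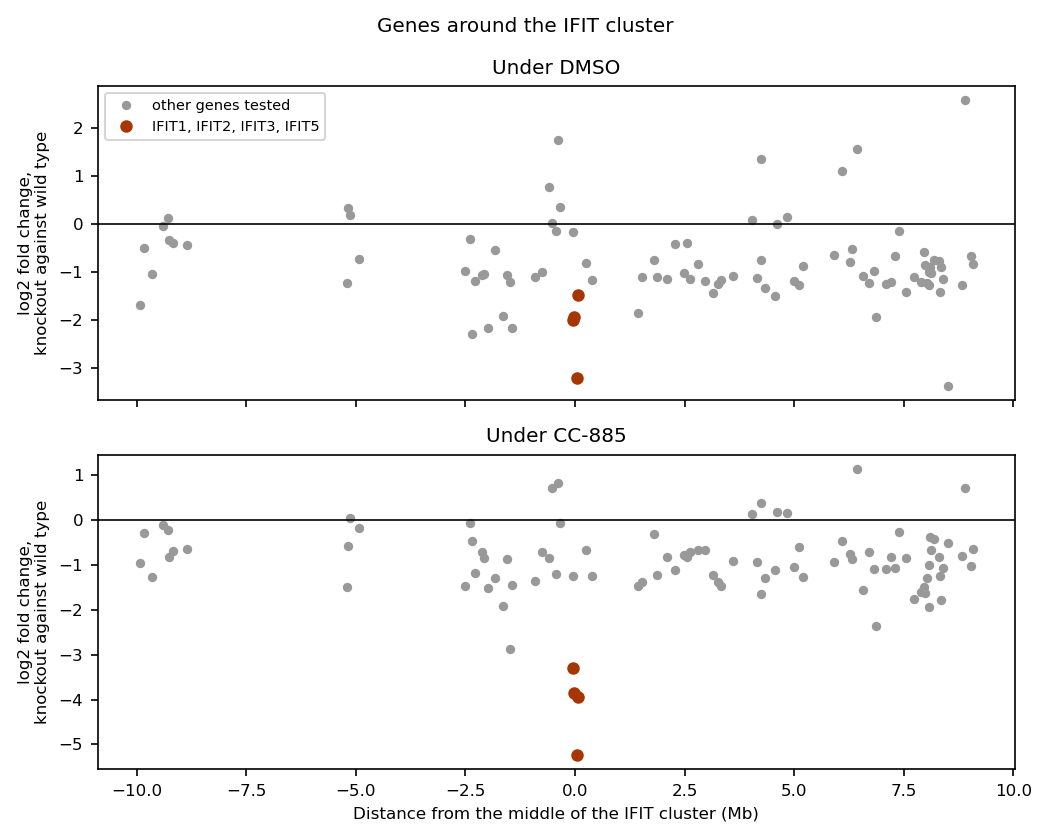
Log2 difference (knockout against wild type) of tested genes within 10 Mb of the middle of the IFIT cluster, under DMSO (upper) and CC-885 (lower), with the 4 IFIT genes in orange and other genes in grey. Most grey points lie near -1 in both panels, and the IFIT points lie between -1.48 and -3.21 under DMSO and between -3.30 and -5.23 under CC-885.

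The OAS enzymes sense double-stranded RNA and make oligoadenylates that activate RNase L. OAS1 read 19.5, 21.6 and 18.9 CPM in wild type with DMSO and 39.4, 40.1 and 57.2 CPM with CC-885, a rise in every treated library of 1.19 ± 0.12 (edgeR adjusted p = 3.65e-07). Edited cells read 3.96, 4.09 and 3.85 CPM and then 2.64, 2.86 and 2.23 CPM, a fall with no overlap (-0.62 ± 0.15, edgeR adjusted p = 0.00168). Knockout held 19.8% of the wild-type level under DMSO and 5.65% under CC-885. OAS2 and OAS3, the larger synthetases of the same chromosome 12 cluster (112906777 to 113011723), moved the same way. OAS2 rose by 1.77 ± 0.13 in wild type and fell in knockout (-0.39 ± 0.14), and OAS3 rose by 0.90 ± 0.17 and fell (-0.80 ± 0.18). The call of OAS2 in knockout was lost without knockout DMSO replicate 3 or CC-885 replicate 1 (edgeR adjusted p = 0.0707 and 0.0728). It was also lost with limma voom (limma voom adjusted p = 0.0583). The neighbours of this cluster within 2 Mb had a median genotype difference of -0.02 under DMSO and 0.15 under CC-885.

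OASL, a relative without synthetase activity that assists RIG-I, rose in both genotypes. It read 5.45, 6.001 and 5.79 CPM and 42.3, 46.8 and 79.95 CPM in wild-type cells and 1.38, 0.979 and 1.51 CPM and 4.198, 5.66 and 4.94 CPM in knockout. Both genotypes rose with no overlap, by 3.29 ± 0.24 and 1.94 ± 0.29 (edgeR adjusted p = 1.39e-07 and 6.44e-05), and the rise was smaller in knockout (interaction -1.35 ± 0.37, 0.0163), a call lost with limma voom (adjusted p = 0.0543) and without knockout DMSO replicate 3 (-1.22, edgeR adjusted p = 0.0596).

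MX1 and MX2 are dynamin-like GTPases, MX1 trapping viral nucleocapsids and MX2 blocking nuclear import of lentiviral genomes. MX1 read 10.4, 14.8 and 12.5 CPM in wild type with DMSO and 42.8, 45.99 and 66.4 CPM with CC-885. Its knockout levels were 1.98, 2.48 and 2.38 CPM and 1.79, 2.17 and 2.06 CPM. The wild-type groups stood apart and the knockout groups overlapped. The response was 2.04 ± 0.16 in wild type (edgeR adjusted p = 6.34e-08) and -0.19 ± 0.21 in knockout (0.426).

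MX2, its neighbour on chromosome 21 (41361943 to 41409390), was 1 of the 2 genes higher in knockout under DMSO. It read 17.9, 24.4 and 21.5 CPM in wild type under DMSO against 37.2, 39.2 and 36.03 CPM in knockout, all knockout libraries being above all wild-type ones (0.82 ± 0.17, edgeR adjusted p = 0.00168). With CC-885 it went to 109, 112 and 174 CPM in wild-type cells and to 22.03, 23.7 and 22.4 CPM in knockout. The rise of 2.63 ± 0.17 in wild type and the fall in knockout (-0.72 ± 0.17, edgeR adjusted p = 0.00177) gave the largest interaction of the 38 genes, -3.35 ± 0.24 (2.38e-06).

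Of the 4 membrane proteins, 0 rose and 2 fell in wild type and 4 fell in knockout, against 35.7%, 36.6% and 40.0% of all genes. IFITM1, IFITM2 and IFITM3 hinder fusion of virus with host membranes, and BST2, or tetherin, holds budding virions to the cell. IFITM1 read 23.00, 31.7 and 31.1 CPM and 26.5, 26.7 and 39.9 CPM in wild type, overlapping, and 6.12, 5.61 and 6.14 CPM and 0.969, 1.17 and 1.24 CPM in knockout. The log2 change in knockout was -2.41 ± 0.21 (edgeR adjusted p = 7.84e-08), and the wild-type value was 0.12 ± 0.15 (0.499), called higher with the prefix covariate (0.24, edgeR adjusted p = 0.0252). IFITM2 read 72.8, 68.8 and 66.5 CPM and 29.9, 27.4 and 25.9 CPM in wild-type cells and 73.3, 72.6 and 73.2 CPM and 8.43, 9.85 and 9.12 CPM in knockout. Its genotypes overlapped under DMSO and both fell with CC-885, with log2 changes of -1.32 ± 0.07 in wild type and -3.00 ± 0.08 in knockout and an interaction of -1.68 ± 0.10 (edgeR adjusted p = 4.48e-08).

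IFITM3 changed by 0.05 ± 0.21 in wild type, which was not called, and fell in knockout (-1.13 ± 0.22). The wild-type value was called higher with the prefix covariate (0.22, edgeR adjusted p = 0.0251) and in the 51 libraries (0.24, 0.0442). The 3 IFITM genes are related copies on chromosome 11 (307631 to 327537). IFITM1 lies within the annotated span of IFITM2 on the same strand. How reads matching several of the 3 genes were counted is not given in the sources used here. BST2 read 146, 161 and 154 CPM and 102, 99.8 and 117 CPM in wild type. In knockout it read 93.1, 88.8 and 82.2 CPM and 32.7, 35.5 and 35.1 CPM, with no overlap between any of these groups. The log2 change was -0.53 ± 0.07 in wild type and -1.36 ± 0.07 in knockout (edgeR adjusted p = 4.77e-06 and 4.88e-11).

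RSAD2, or viperin, makes a chain-terminating nucleotide, and CMPK2, a mitochondrial nucleotide kinase encoded next to it on chromosome 2 (6840570 to 6898239), can supply its substrate. RSAD2 read 5.11, 6.46 and 5.72 CPM in wild type with DMSO and 6.89, 8.11 and 11.01 CPM with CC-885. Knockout libraries gave 3.82, 3.71 and 4.79 CPM and 1.24, 1.73 and 1.45 CPM. It rose in wild type (0.59 ± 0.17, edgeR adjusted p = 0.00476) and fell in knockout (-1.48 ± 0.19, 3.07e-06). The lower level in knockout under DMSO (-0.49 ± 0.17, edgeR adjusted p = 0.0262) lost its call with wild-type replicate 2 or 3 or knockout replicate 1 or 2 left out, 4 of the 6 DMSO libraries, and with upper-quartile scaling. CMPK2 read 32.2, 41.2 and 39.2 CPM and 48.8, 54.6 and 63.7 CPM in wild-type cells and 26.6, 27.2 and 29.7 CPM and 8.39, 8.21 and 9.03 CPM in knockout. It moved in opposite directions too, 0.57 ± 0.10 and -1.70 ± 0.11, without overlap in either genotype. The genes overlap on opposite strands, and the strand setting of the counting is not given in the sources used here.

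DDX58 (RIG-I) and IFIH1 (MDA5) are the cytosolic helicases that detect viral RNA, and DDX60 is a related helicase. DDX58 read 14.7, 11.2 and 11.4 CPM in wild type with DMSO and 9.53, 10.8 and 10.1 CPM in knockout, a difference that was not called (-0.29 ± 0.16, edgeR adjusted p = 0.161). Under CC-885 it read 22.5, 25.9 and 37.4 CPM in wild-type cells and 5.202, 4.63 and 5.21 CPM in knockout, log2 changes of 1.20 ± 0.16 and -1.02 ± 0.17 that were both called. Every knockout library lay below every wild-type library under either treatment, by a wider margin with the drug, and the interaction was -2.22 ± 0.24 (edgeR adjusted p = 1.40e-05). The DMSO difference was called without wild-type CC-885 replicate 3 (-0.29, edgeR adjusted p = 0.0212). It was -0.15 without wild-type DMSO replicate 1, the highest of its group, and -0.54 in the 51 libraries. That replicate is the only wild-type DMSO library with 51.

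DDX60 read 22.9, 26.02 and 26.3 CPM and 61.7, 61.3 and 96.6 CPM in wild-type cells and 10.5, 10.6 and 12.9 CPM and 32.99, 30.9 and 28.99 CPM in knockout. It rose by 1.54 ± 0.16 and 1.45 ± 0.16, so treated knockout libraries passed untreated wild type while staying below treated wild type. The interaction was -0.09 ± 0.22 (edgeR adjusted p = 0.782) and 0.16 without wild-type CC-885 replicate 3, a difference that was not detectable here and is not shown to be absent. IFIH1 rose by 1.36 ± 0.11 in wild type and stood at 0.08 ± 0.12 in knockout, with an interaction of -1.28 ± 0.16 (edgeR adjusted p = 3.12e-05).

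ISG15 is a ubiquitin-like protein that is joined to newly made proteins by the conjugating enzyme UBE2L6 and the ligase HERC5, and removed by USP18, which also restrains the interferon receptor. ISG15 (chromosome 1, 1001138 to 1014540) read 23.9, 36.5 and 31.9 CPM in wild type with DMSO and 57.2, 62.1 and 102 CPM with CC-885. Edited cells read 13.6, 10.3 and 12.1 CPM and 5.62, 6.35 and 7.899 CPM. It rose without overlap in wild type (1.26 ± 0.24, edgeR adjusted p = 0.000667) and fell without overlap in knockout (-0.86 ± 0.26, 0.0113). USP18 read 6.78, 8.22 and 8.21 CPM and 14.96, 15.9 and 23.5 CPM in wild type, a rise of 1.23 ± 0.16. Its knockout levels were 2.02, 1.45 and 1.87 CPM and 1.94, 1.46 and 1.49 CPM, which overlapped.

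Neither the conjugating enzyme nor the ligase HERC5 rose in wild type. UBE2L6 read 20.8, 24.8 and 20.9 CPM and 11.3, 11.3 and 11.9 CPM in wild-type cells and 14.2, 14.5 and 13.1 CPM and 2.44, 1.88 and 2.73 CPM in knockout. It fell in both, -0.95 ± 0.11 and -2.56 ± 0.12 (edgeR adjusted p = 6.48e-07 and 1.01e-11). HERC5 read 6.71, 7.15 and 6.42 CPM and 5.92, 5.81 and 6.03 CPM in wild type, a change without overlap that was not called (-0.19 ± 0.09, edgeR adjusted p = 0.0762) but passed with upper-quartile scaling or library size alone (-0.26 and -0.25, edgeR adjusted p = 0.0205 and 0.0288). In knockout it read 8.27, 8.57 and 8.84 CPM and 3.53, 3.61 and 3.97 CPM, and fell (-1.21 ± 0.10). Its higher level in knockout under DMSO (0.34 ± 0.09, edgeR adjusted p = 0.00574) held no call in the 51 libraries (0.32, 0.0761). HERC6, a related protein encoded beside it on chromosome 4, rose by 1.34 ± 0.13 in wild type and stood at 0.13 ± 0.13 in knockout.

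**Figure D5:**
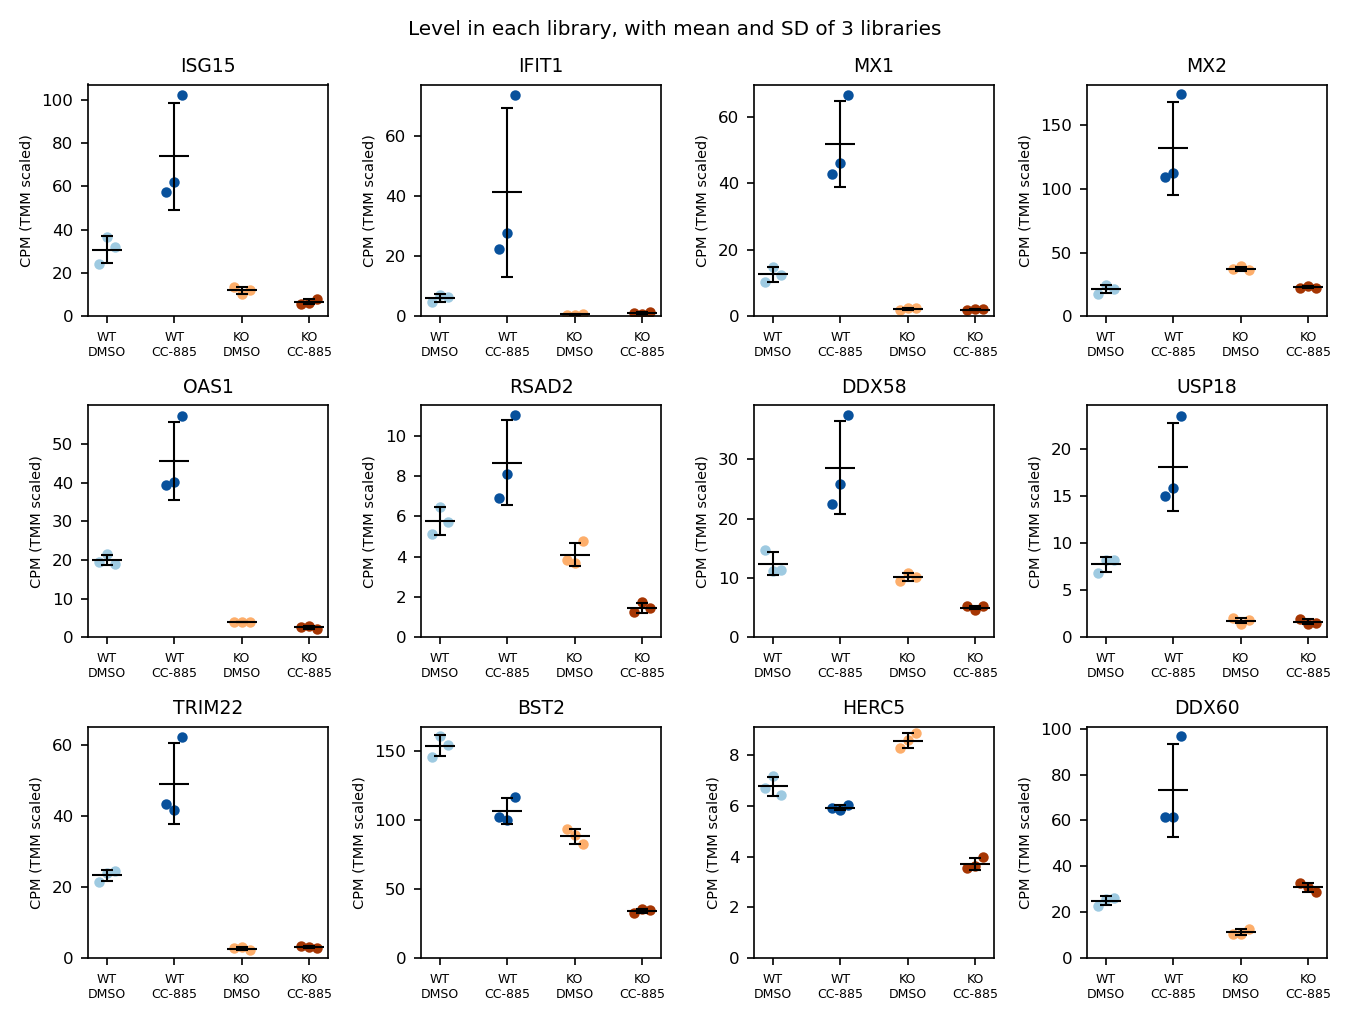
Levels (CPM with TMM scaling, axes from 0) of 12 of the genes in each library, by group, with the mean and SD of 3 libraries. ISG15 and MX2 rise in wild type and fall in knockout, BST2 falls in both, HERC5 is highest in untreated knockout, and DDX60 rises in both.

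Of the 6 nuclear and ADP-ribosylation factors, all rose in wild type and were lower in knockout under DMSO, against 35.7% and 28.4% of all genes. The DMSO calls of SP110 and DTX3L (-0.32 ± 0.11 and -0.23 ± 0.07) were lost in 7 and 5 of 24 alternatives, upper-quartile scaling among them (-0.20 and -0.11, edgeR adjusted p = 0.124 and 0.208). TRIM22, a ubiquitin ligase that restrains retroviruses and influenza virus, read 21.5, 24.1 and 24.4 CPM and 43.3, 41.6 and 62.1 CPM in wild type. Knockout libraries gave 2.92, 3.08 and 2.24 CPM and 3.46, 3.299 and 2.98 CPM, overlapping groups at 11.8% and 6.63% of wild type. The differences from wild type were -3.08 ± 0.16 and -3.91 ± 0.16 (edgeR adjusted p = 1.12e-09 and 8.34e-11). PLSCR1, a phospholipid scramblase that limits virus entry, read 36.3, 36.04 and 34.5 CPM and 109, 108 and 137 CPM in wild-type cells and 26.7, 28.9 and 27.6 CPM and 57.1, 58.1 and 61.9 CPM in knockout. It rose without overlap in both genotypes, 1.73 ± 0.08 and 1.09 ± 0.08, and had the smallest called interaction, -0.64 ± 0.12 (edgeR adjusted p = 0.000632).

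PARP9 and DTX3L form an ADP-ribosyltransferase and ubiquitin ligase complex and share a start region on chromosome 3, on opposite strands (122527924 to 122575203). PARP9 rose by 0.88 ± 0.14 in wild type and fell in knockout (-1.03 ± 0.15). DTX3L rose by 0.92 ± 0.07 in wild type and stood at 0.06 ± 0.07 in knockout, which was not called. DTX3L had an interaction of -0.86 ± 0.11 and PARP9 one of -1.91 ± 0.20; the difference between these genes was not tested. SP110, a nuclear body component, rose by 1.63 ± 0.11 and the apoptosis factor XAF1 by 1.76 ± 0.11 in wild type. In knockout they stood at 0.21 ± 0.11 and 0.01 ± 0.11, neither called, though SP110 was called higher in 5 alternatives, with the prefix covariate among them (0.28, edgeR adjusted p = 0.0148).

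SAMD9 and SAMD9L, neighbours on chromosome 7 that restrict poxviruses, rose by 1.65 ± 0.29 and 1.38 ± 0.10 in wild type. SAMD9 read 54.2, 51.1 and 50.3 CPM and 109, 123 and 255 CPM in wild type, replicate 3 standing far above the others. Edited cells read 36.02, 43.7 and 47.05 CPM and 25.8, 23.3 and 19.5 CPM. The SAMD9 difference between genotypes under DMSO was not called (-0.29 ± 0.29, edgeR adjusted p = 0.432). It passed without wild-type CC-885 replicate 3 (-0.29, edgeR adjusted p = 0.0164) and with only the compared groups (-0.24, 0.0275). The fall in knockout (-0.89 ± 0.30, edgeR adjusted p = 0.0198) lost its call without DMSO replicate 3 or CC-885 replicate 3 (0.0605 and 0.0639). The interaction was -2.53 ± 0.41, or -2.04 without wild-type CC-885 replicate 3. SAMD9L stood at 0.03 ± 0.11 in knockout, with an interaction of -1.35 ± 0.15.

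The widest gaps between genotypes belonged to IFI27, IFI44L and IFIT1. IFI27, a small mitochondrial and nuclear membrane protein used as a marker of interferon exposure, read 7.503, 20.4 and 20.1 CPM and 15.4, 17.5 and 47.1 CPM in wild type. Its knockout levels were 0.1401, 0.175 and 0.199 CPM and 0.287, 0.167 and 0.168 CPM, from 27 and 32 counts summed over the 3 libraries of each group. Wild-type DMSO replicate 1, a 51 library, was far below the other DMSO libraries. The response in wild type was not called (0.73 ± 0.46, edgeR adjusted p = 0.184) but passed with a covariate for the prefix (1.16, edgeR adjusted p = 1.53e-08) and was 0.03 without CC-885 replicate 3. The genotype differences were -6.53 ± 0.78 under DMSO and -6.96 ± 0.75 under CC-885 (edgeR adjusted p = 9.25e-05 and 3.17e-05), the latter -6.27 without that replicate.

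IFI44L, an interferon-induced protein, read 2.78, 8.48 and 7.63 CPM and 11.1, 10.7 and 24.9 CPM in wild-type cells and 0.2201, 0.472 and 0.377 CPM and 0.251, 0.188 and 0.336 CPM in knockout. Every knockout library was below every wild-type library, with differences of -4.12 ± 0.61 under DMSO and -5.90 ± 0.63 under CC-885 (edgeR adjusted p = 0.000333 and 2.32e-05). Its neighbour IFI44 rose by 2.23 ± 0.34 in wild type and stood at 0.53 ± 0.45 in knockout, a value called in 5 of 24 alternatives. EPSTI1, an interferon-induced stromal interaction protein, rose in both genotypes, 2.60 ± 0.24 and 1.14 ± 0.30. IFI6, a membrane protein that limits flavivirus replication, was called in neither response (0.21 ± 0.35 and -0.70 ± 0.39) but was lower in knockout under DMSO (-2.42 ± 0.38). In the 51 libraries the IFI6 values were 0.45 and -0.86, both called, and -1.56 for the DMSO difference, which has 1 wild-type library there. IFI35 rose by 0.29 ± 0.11 in wild type, a call lost under several settings, and fell in knockout (-0.52 ± 0.11).

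Upstream of these genes, the interferon beta transcript was counted in both genotypes under CC-885. IFNB1, encoding interferon beta, was the only 1 of 14 listed ligands with enough counts to test. It had 1 count over the 3 wild-type DMSO libraries and 36, 33 and 34 counts in the CC-885 libraries, and 0 counts over the knockout DMSO libraries and 35, 33 and 54 counts under CC-885. Both genotypes therefore had more IFNB1 with CC-885, at least 39.6-fold more in knockout, taking 3 counts over the DMSO group as the floor. Under CC-885 its level was 0.676 ± 0.0303 CPM in wild-type cells and 0.817 ± 0.277 CPM in knockout, a log2 difference of 0.27 ± 0.30 that was not called (edgeR adjusted p = 0.465). IFNL1 had 17 counts over wild type under CC-885, 12 of them in replicate 1, and 6 over knockout.

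No receptor gene was called lower in knockout under CC-885. Of 8 tested receptor and kinase genes of the pathway, 4 were higher and 0 lower there, against 27.8% and 30.8% of all genes, the largest being IFNAR2 (0.71 ± 0.06), IL10RB (0.49 ± 0.07) and JAK2 (0.31 ± 0.06). IFNAR1, the other receptor chain for interferon beta, stood at 0.02 ± 0.07 and was not called. Of 7 inhibitors of the pathway, 4 were higher in knockout under CC-885 and 1, SOCS3, was lower.

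Most transcription factors of the pathway were lower in knockout as well. Of 11 listed, 7 were lower and 2 higher in knockout under CC-885, and the interaction was below 0 for 6 and above 0 for 1, against 30.8%, 27.8%, 16.8% and 17.9% of all genes in that order. IRF9 read 28.1, 30.7 and 32.6 CPM and 160, 163 and 195 CPM in wild-type cells and 15.9, 13.4 and 12.1 CPM and 32.7, 34.8 and 33.4 CPM in knockout, rising in both, by 1.28 ± 0.10 in knockout, and less there than in wild type (-1.22 ± 0.14, edgeR adjusted p = 1.13e-05). IRF7 rose by 3.26 ± 0.12 and 3.61 ± 0.13 and ended at 286 ± 43.1 CPM in wild-type cells and 95.6 ± 4.49 CPM in knockout.

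Other genes of the pathway were counted from lists that held none of the 38. Of 16 tested nucleic acid sensing genes, 11 were lower and 2 higher in knockout under CC-885, where 30.8% and 27.8% of all genes were, the largest being the helicase regulator DHX58 (-2.56 ± 0.13), the DNA sensor IFI16 (-2.35 ± 0.16) and the RNA-activated kinase EIF2AK2 (-2.01 ± 0.13). Of 42 other interferon-stimulated genes tested, 34 were lower and 4 higher (median -0.82), the largest differences being SIGLEC1 (-4.90 ± 0.41), CXCL10 (-3.23 ± 0.45) and LGALS3BP (-3.21 ± 0.36). In wild type 17 of these 42 rose and 13 fell with CC-885 (median 0.11), near the 35.7% and 36.6% of all genes. In knockout 11 rose and 22 fell (median -0.23), against 38.9% and 40.0%. The interaction was below 0 for 25 of the 42 and above 0 for 1 (median -0.53), against 16.8% and 17.9% of all genes.

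Responses are given by promoter pattern as a description. The 22 with a match had a median response of 1.28 in wild type and the 9 with a window and no match 1.20, and in knockout the medians were -0.34 and -0.52. Among genes outside the 38, 427 tested genes held a match. Of these, 41.0% were lower in knockout under CC-885, against 31.7% of 10313 without one, and 30.4% against 38.9% fell with CC-885 in wild type. The shares were closer for rises in wild type (37.5% against 36.3%) and for lower levels in knockout under DMSO (31.6% against 30.5%). No test was made of these shares.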

How the data were processed

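Gene expression was measured by poly(A) RNA sequencing in 12 libraries, 3 for each of 4 groups. The values are raw read counts per gene symbol, deposited by the authors and not normalized. Per the submitters' processing notes, reads were handled with FastQC 0.11.2, HISAT2 2.0.5 and featureCounts 1.5.2 on GRCh38. The extract protocol names a mouse build instead; the symbols are human. Neither the strand setting nor the handling of reads with several matches is known from those notes, and 19 of the 38 genes overlap a gene on the opposite strand.

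Of 30017 symbols, 7380 had no count, and 16010 (53.3%) passed edgeR's filterByExpr. One quasi-likelihood model (edgeR 4.0.16, R 4.3.3, TMM scaling) was fitted to all 12 libraries with a mean per group. P-values were adjusted by Benjamini-Hochberg over all 16010 genes, and an adjusted p under 0.05 was called. Standard errors of log2 fold changes came from the F statistic. The fitting steps were tested on simulated data. Library totals were 46903984 to 56675539 counts. The biological coefficient of variation, the square root of edgeR's common dispersion within groups, was 0.0899. Despite its name, this spread may be technical here.

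The 38 genes, the pathway lists and the naming rule were chosen with earlier results of these data known. Values in every library are given for 12 fixed genes and for the 4 called genes with the largest rise and the 4 with the largest fall in each comparison, at a mean of at least 5 CPM. Alternatives were other scalings and filters, DESeq2 1.42.0, limma voom (limma 3.58.1), fits to the compared groups only, replicate blocks, the library-name prefix, and leaving out each library. No block was used, although whether the libraries are paired is not known. Deviations correlated over 0.1 in 5 of 18 library pairs with the same title number and in 4 of 36 others. By the number in the library name this was 4 of 11 and 5 of 43. Deviations of 9 of 28 library pairs with the same prefix correlated over 0.1, and of 0 of 26 with different prefixes; the prefix is an alternative, not a term of the model. Results for some listed genes are not reported here.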

Additional observations from a re-analysis of the deposited data

Results flagged for a closer look

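The response to CC-885 differed between the genotypes for 33 of the 38 genes by the edgeR test of the interaction, the knockout response minus the wild-type response on the log2 scale. The GTPase MX2 had the largest value, -3.35, and its relative MX1 had -2.23. Among genes acting on RNA, the values were -2.46 for IFIT5, -1.94 for IFIT3, -1.30 for IFIT2, -2.15 for OAS2, -1.81 for OAS1, -1.69 for OAS3, -1.35 for OASL, -2.22 for DDX58 and -1.28 for IFIH1. The membrane proteins had -2.53 for IFITM1, -1.68 for IFITM2, -1.18 for IFITM3 and -0.83 for BST2. The nucleotide enzymes had -2.27 for CMPK2 and -2.07 for RSAD2.

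In the ISG15 system the interaction was -2.12 for ISG15, -1.62 for UBE2L6, -1.34 for USP18, -1.21 for HERC6 and -1.02 for HERC5. It was -1.91 for PARP9, -1.76 for XAF1, -1.41 for SP110, -0.86 for DTX3L, -0.83 for TRIM22 and -0.64 for PLSCR1. SAMD9 had -2.53 and SAMD9L -1.35. The other interferon-induced genes had -1.70 for IFI44, a call lost in 11 of 23 alternatives (limma voom adjusted p = 0.105), -1.46 for EPSTI1 and -0.81 for IFI35. Wild-type CC-885 replicate 3, which was the highest library of its group for many of these genes, enters every one of these values.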

How the results depend on the processing

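No called value changed direction under the alternatives run. The covariate for the library-name prefix takes the same shift for a gene in both genotypes. With it, 33 of the 38 genes rose with CC-885 in wild type (against 30) and 10 in knockout (against 6). Interactions were below 0 for 35 of the 38 genes (against 33). With libraries of prefix 51 only, 1 was higher in knockout under DMSO, against 2, HERC5 losing its call. Leaving out each library in turn gave 28 to 30 genes higher and 3 lower with CC-885 in wild type, 6 to 9 higher and 15 to 17 lower in knockout, 2 higher and 29 to 35 lower in knockout under DMSO, 0 higher and 38 lower under CC-885, and 31 to 34 below 0 and 0 above 0 for the interaction. The cause of these shifts was not tested.

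The replicate block by title number gave 34 interactions below 0, IFIT1 being added (-1.84, edgeR adjusted p = 0.0434), and changed no other count. Of 18 pairs of libraries with the same title number, 5 had a correlation of deviations over 0.1 (range -0.116 to 0.341), as had 4 of 36 other pairs. The numbers were not taken to pair them, and a pairing is not shown to be absent. The replicate block by the number in the library name left 1 gene higher in knockout under DMSO. It gave 9 genes higher and 16 lower with CC-885 in knockout (median -0.04, against -0.29). Depth limits IFI27 most, with 27 and 32 counts over the knockout groups. With only the compared groups, IFI27 in knockout fell below the count filter and could not be fitted.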
